A study of Mus musculus with 16 samples.

Results

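Endothelial cells of mouse embryos that had lost 1 copy of Notch1 (+/-) were compared with those of wild-type embryos (+/+). The comparison rests on the 3 libraries whose genotype label gives a deleted Notch1 allele beside a wild-type allele, against the 3 libraries labelled wild type. These are 6 of the 16 libraries of the study, which sequenced RNA from embryos of 6 Notch1 genotypes so that the effect of Notch1 dose on endothelial RNA could be read. Cells were sorted by flow cytometry for CD31, a surface protein of endothelial cells, from whole embryos at embryonic day 9.5. Both genotypes are described by the labels as having normal endothelial development. Wild type is written in 2 ways in the labels, 1 for replicate 1 and another for the other replicates, and both spellings were pooled. A further pair of genotypes is used for contrast: 12/- (3 libraries, development labelled impaired) and +/12 (3 libraries, labelled normal). In the 12 allele the intracellular domain of Notch2 stands in for that of Notch1, so 12/- differs from +/12 by the same exchange of a wild-type for a null allele. The +/vg and 12/vg libraries, which carry another Notch1 allele called vg, entered the scaling, the filter on low values and the fit but no comparison. The sources used here do not say which part of Notch1 the null allele lacks, whether the + allele comes from the same strain in all groups, or whether a library holds 1 embryo or several. The p-values therefore rest on differences among libraries, part of which may be technical.

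Notch1 is a cell surface receptor that is cut when a ligand on a neighbouring cell binds it. The released intracellular domain enters the nucleus, joins the DNA-binding protein RBPJ and Mastermind coactivators, and switches on genes such as the Hes and Hey repressors. In the forming vessels of the embryo Notch signalling is known for arterial identity, for restraining tip cells during sprouting, and for the endocardial cushions and blood stem cells that arise from endothelium. Mice with 1 functional copy of Notch1 are generally viable, while loss of both copies is lethal at midgestation with vascular defects.

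Levels are given as scaled FPKM, the deposited fragments per kilobase of transcript relative to all mapped fragments, divided by a per-library factor between 0.851 and 1.13. Differences are on the log2(scaled FPKM + 1) scale, +/- minus +/+, with the standard error of the limma fit, and understate changes of low genes. Testing covered the 10550 genes whose FPKM averaged 1 or more, and a call means a limma adjusted p below 0.05 over all of them. The aligned sequence came to 1.61, 0.189 and 1.75 gigabases in +/- replicates 1, 2 and 3, and to 1.73, 1.72 and 1.65 gigabases in +/+ replicates 1, 2 and 3. The +/- replicate 2 library was thus far shallower than the other 5, and 394 of the genes tested were listed at 0 in it, against 188 to 242 in the others. Across genes, which are not independent replicates, Pearson's r of its log2 profile with the other 5 was 0.860 to 0.892, against 0.897 to 0.924 among those 5. The median SD of a gene's log2 level was 0.286 over the 3 +/- libraries and 0.210 over the 3 +/+ libraries, and it was 0.175 in +/- without replicate 2. The library number in the file names falls in a high range for 5 of the libraries and in a separate, low range for +/- replicate 3. The labels name no batch.

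All 27 of 27 pan-endothelial markers were above 0 in all 6 libraries. Their summed scaled FPKM was 1945, 2397 and 2243 in +/- libraries, against 1977, 1934 and 1957 in +/+ libraries. Xist was above 0 in all 6 libraries, at 12.5 to 21.1 scaled FPKM. The span of Xist overlaps that of Tsix and the strand setting was not given, so this level is uncertain. The 4 Y-linked genes examined were listed at 0 in +/- replicate 3 but not in the other 5. Those 5 thus held Y-linked RNA beside RNA assigned to Xist. The libraries were not matched for embryo sex, and whether those 5 hold cells of both sexes was not tested. No 2 libraries held the same values.

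Loss of 1 Notch1 copy left no gene past the threshold in these libraries. The limma fit called 0 of 10550 genes (0%) in either direction, and the smallest adjusted p was 0.0940, for Clstn1. At an unadjusted p under 0.05, 792 genes (7.51%) passed: 386 higher in +/- (3.66%) and 406 lower in +/- (3.85%). Without scaling of the libraries that split was 647 higher and 155 lower. The count was 1535 without +/- replicate 1 and 1204 without +/- replicate 3. The 3 +/- values lay wholly above the 3 +/+ values for 424 genes (4.02%) and wholly below for 398 genes (3.77%).

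A missed threshold does not show that the genotypes are alike, so the size of difference the data allow is given for each gene as its 95% interval. For 8988 genes (85.2%) the interval lay between -1 and 1 on the log2 scale, which puts these genes within a doubling or halving on that scale. The share depended on the fit: it was 73.3% with 0.1 in place of 1 added to the scaled FPKM, and 76.0% with the 6 libraries fitted alone. The median standard error was 0.19 and the median distance from the estimate to the end of the interval 0.42, so smaller differences were below what 3 against 3 libraries resolve. Estimates beyond 1 in either direction were seen for 218 genes, but for 43 once genes with no transcript of at least 300 nucleotides, such as small RNA genes, were set aside. For comparison, 238 genes lay beyond 1 in 12/- against +/12 with such short genes kept in, a count to set beside the 218.

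**Figure D1:**
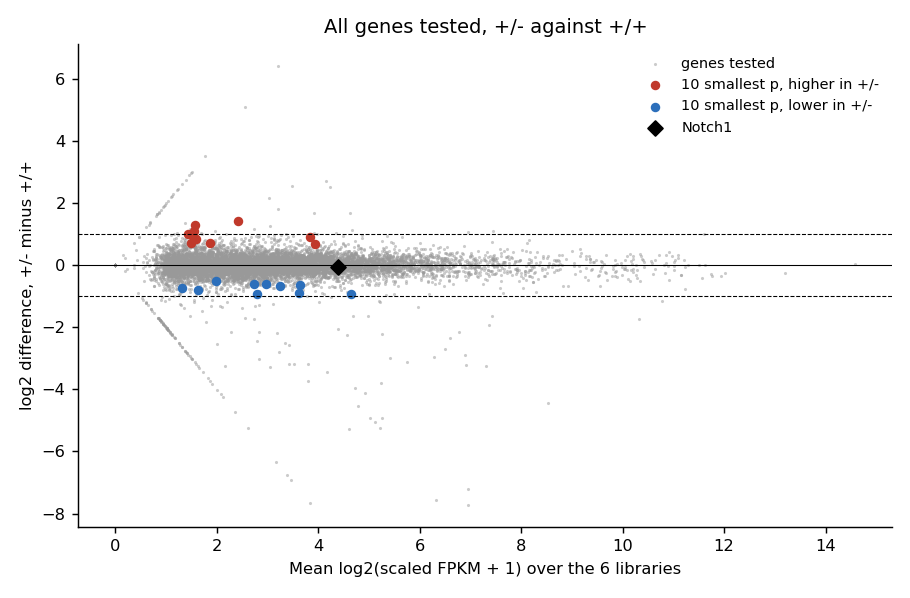
Log2 difference (+/- minus +/+, vertical axis) of each of the 10550 genes tested against its mean log2(scaled FPKM + 1) over the 6 libraries (horizontal axis). Dashed lines mark -1 and 1; red and blue points are the 10 genes with the smallest unadjusted p in each direction among those whose libraries do not overlap, none of which was called, and the black diamond is Notch1 at -0.05.

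Notch1 itself was examined first. Its gene lies on chromosome 2 at 26313422 to 26359342 (mm9, with 1 added to the start that the files give). It had 16.4, 20.0 and 23.2 scaled FPKM in +/- libraries, against 23.3, 20.7 and 17.5 scaled FPKM in +/+ libraries. The ranges overlapped almost completely, with the lowest value in a +/- library and +/- replicate 3 next to the highest. The means were 19.9 ± 3.39 in +/- and 20.5 ± 2.92 in +/+ (SD, n = 3 each). The log2 difference was -0.05 ± 0.15 (SE), with a 95% interval of -0.36 to 0.27 (limma adjusted p = 0.955), and an exact two-sided permutation test gave p = 0.7, where 0.1 is the smallest that 3 against 3 allows. A level over the whole gene does not check the allele, because a deleted allele may still give RNA from the parts that remain. Direction was not fixed either, since the difference was 0.08 without +/- replicate 1 and 0.05 without +/+ replicate 1. The deposited coverage of Notch1 was 28.7, 3.70 and 45.5 reads per base in +/- libraries and 34.3, 40.02 and 29.3 in +/+ libraries.

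The other 3 Notch receptors likewise gave no call. Notch4, which is largely endothelial, had 8.63, 10.7 and 14.7 scaled FPKM in +/- libraries, against 7.98, 11.1 and 8.93 in +/+ libraries. Its log2 difference was 0.24 ± 0.21 and the groups overlapped. Notch2, a low-level receptor here, had 2.33, 3.41 and 2.25 in +/- libraries, against 2.67, 3.31 and 2.89 in +/+ libraries, a log2 difference of -0.12 ± 0.15. Notch3, best known in mural cells, had 1.13, 1.41 and 1.60 in +/- libraries, against 1.70, 1.74 and 2.05 in +/+ libraries. All 3 +/- values of Notch3 lay below the 3 +/+ values, yet its log2 difference of -0.25 ± 0.20 had a 95% interval of -0.67 to 0.17 (limma adjusted p = 0.766). In scaled FPKM, which is per length, the order was Notch1, Notch4, Notch2 and Notch3 in each of the 6 libraries.

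Among the ligands and Fringe enzymes, 8 of 10 were tested and none was called. None was free of overlap between the groups either, where 4.02% of all genes tested lay wholly higher and 3.77% wholly lower. Dll4, the main arterial endothelial ligand, had 6.92, 9.22 and 11.2 scaled FPKM in +/- libraries, against 9.83, 6.40 and 10.4 in +/+ libraries. Its log2 difference was 0.04 ± 0.27. Jag1, a ligand of endothelial and mural cells, had 2.03, 1.95 and 3.67 in +/- libraries, against 3.04, 2.78 and 3.18 in +/+ libraries. Only +/- replicate 3 was above the +/+ range, and the log2 difference was -0.20 ± 0.18. Jag2 also stood highest in +/- replicate 3, at 6.21, against 2.09 and 2.78 in the other +/- libraries and 2.62 to 3.30 in +/+ libraries. Dll1 had 1.17, 4.27 and 2.61 in +/- libraries, against 1.58, 1.97 and 1.27 in +/+ libraries, with a log2 difference of 0.42 ± 0.28. Mfng, the most abundant Fringe, which adds sugar to Notch and tunes its response to ligands, had 33.4, 21.8 and 44.6 in +/- libraries, against 33.5, 35.1 and 39.0 in +/+ libraries. Its difference was -0.16 ± 0.20, and the lowest value was that of the shallow +/- replicate 2. Lfng (-0.14), Rfng (-0.04) and Dlk1 (-0.36), a non-canonical ligand, completed the tested set. Dll3 and Dner were below the filter on low values, and Dner was listed at 0 in all 6 libraries.

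Of 25 genes for cleavage, sugar modification and nuclear partners of Notch, 20 were tested, 0 were called, and the median log2 difference was 0.05, against 0 over all genes tested. Rbpj, the DNA-binding partner, had 7.98, 7.11 and 6.61 scaled FPKM in +/- libraries, against 5.13, 7.90 and 7.84 in +/+ libraries. The difference of 0.07 ± 0.16 was well inside the spread. Psenen, a small gamma-secretase subunit and the most abundant of the list, had 109.9, 39.6 and 114.3 in +/- libraries, against 103.0, 112.0 and 124.7 in +/+ libraries. Its low value again came from +/- replicate 2 alone. Mib1, the ubiquitin ligase that lets ligands signal, had the smallest p of the list, with 11.1, 6.96 and 9.69 in +/- libraries, against 12.1, 13.1 and 11.8 in +/+ libraries. All 3 +/- values were below the +/+ values, and the log2 difference was -0.40 ± 0.14 (limma unadjusted p = 0.0131, adjusted p = 0.580). Mib1 was the 1 member of the 20 wholly lower in +/-, and 2 others lay wholly higher. Of all genes tested, 3.77% lay wholly lower and 4.02% wholly higher.

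**Figure D2:**
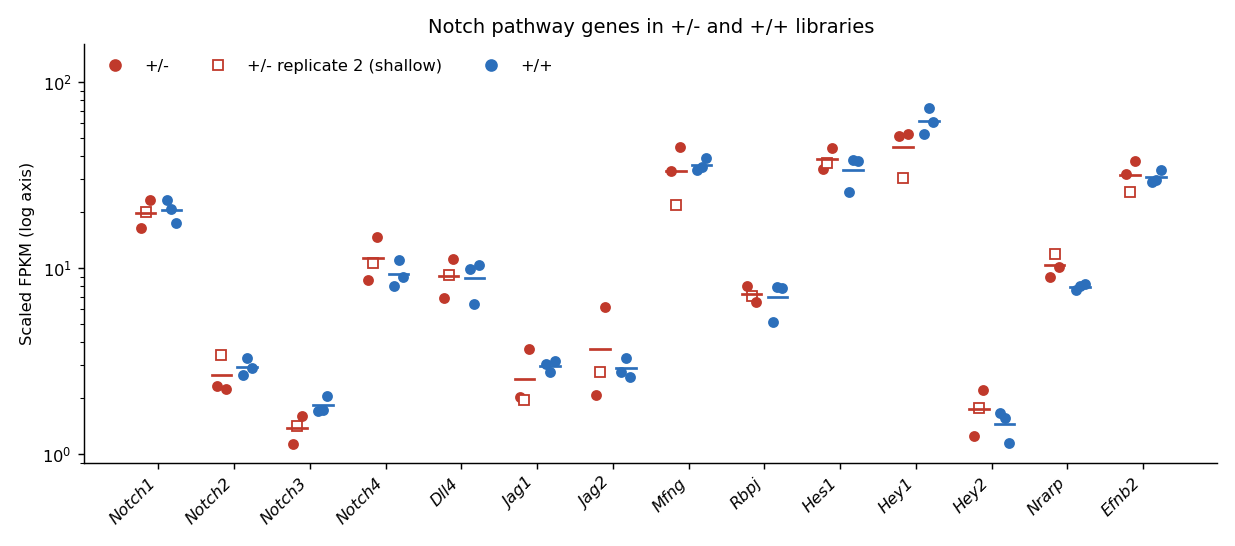
Scaled FPKM (log axis) of 14 Notch pathway genes in each library, +/- in red to the left and +/+ in blue to the right for each gene; short bars are group means and the open squares are the shallow +/- replicate 2. The groups overlap for every gene drawn except Notch3, lower in +/-, and Nrarp, higher in +/-.

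Notch target genes are the nearest readout of signalling strength, and 12 of the 16 listed were tested. None was called, and 9 differences were positive and 3 negative, with a median of 0.11. Hes1, a repressor switched on by Notch in many tissues, had 34.3, 36.6 and 44.3 scaled FPKM in +/- libraries, against 25.7, 38.3 and 37.5 in +/+ libraries, with a log2 difference of 0.19 ± 0.27. The groups overlapped. Hey1, an arterial and endocardial repressor, had 51.1, 30.5 and 52.8 in +/- libraries, against 52.6, 72.1 and 61.3 in +/+ libraries. The highest +/- value, of replicate 3, was just above the lowest +/+ value. The log2 difference was -0.49 ± 0.32 with a 95% interval of -1.18 to 0.19 (limma adjusted p = 0.731), and it was -0.24 without the shallow +/- replicate 2. Hey2, a related repressor, was low at 1.25, 1.77 and 2.22 in +/- libraries, against 1.67, 1.57 and 1.14 in +/+ libraries (0.15 ± 0.22).

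Nrarp, a feedback inhibitor that is induced by Notch, was the 1 target of the 12 tested whose libraries did not overlap between genotypes, where 4.02% of all genes tested lay wholly higher and 3.77% wholly lower. It had 8.98, 12.0 and 10.1 scaled FPKM in +/- libraries, against 7.66, 8.04 and 8.21 in +/+ libraries. Every +/- value was thus above every +/+ value, and the highest was in the shallow replicate 2. The log2 difference was 0.33 ± 0.18 with a 95% interval of -0.06 to 0.73 (limma unadjusted p = 0.0925, adjusted p = 0.699), and it was 0.23 without that library. Efnb2, an arterial ephrin, had 32.0, 25.7 and 37.6 in +/- libraries, against 29.1, 29.7 and 33.6 in +/+ libraries, a difference of 0.03 ± 0.22. Among targets shared with cell growth, the difference was 0.01 for Myc, 0.08 for Ccnd1 and 0.63 ± 0.41 for Cdkn1a, the p21 cell cycle inhibitor. Cdkn1a had 3.67, 12.4 and 11.7 in +/- libraries, against 4.78, 3.58 and 7.10 in +/+ libraries, so 2 of the 3 +/- libraries were above the +/+ range and 1 was within it. The remaining tested targets were Gata2 (0.17), Snai1 (0.14), Snai2 (-0.48) and Dtx3 (-0.30). Hes5, Heyl, Dtx1 and Dtx4 were below the filter.

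The promoters of 2 of these targets are shown because the cleaved receptor acts on DNA through RBPJ. The pair differs in whether the core of the RBPJ site is present. Whether RBPJ acts within these windows was not tested. The sequences run from 250 bases before to 50 bases after the start of the gene, from RefSeq on GRCm38.p6, a later build than the mm9 of the files, and 8 of the 16 targets had an entry. Capitals mark TGGGAA or its reverse complement TTCCCA, searched on both strands. Hey2 is at chr10:30842734-30843033 on the minus strand and Nrarp at chr2:25180508-25180807 on the plus strand.
Hey2: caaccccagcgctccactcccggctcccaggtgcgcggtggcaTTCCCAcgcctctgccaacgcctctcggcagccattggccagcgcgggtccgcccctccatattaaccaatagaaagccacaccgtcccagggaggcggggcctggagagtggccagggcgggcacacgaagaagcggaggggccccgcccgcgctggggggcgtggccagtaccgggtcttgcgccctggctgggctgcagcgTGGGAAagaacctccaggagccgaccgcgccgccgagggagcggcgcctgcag
Nrarp: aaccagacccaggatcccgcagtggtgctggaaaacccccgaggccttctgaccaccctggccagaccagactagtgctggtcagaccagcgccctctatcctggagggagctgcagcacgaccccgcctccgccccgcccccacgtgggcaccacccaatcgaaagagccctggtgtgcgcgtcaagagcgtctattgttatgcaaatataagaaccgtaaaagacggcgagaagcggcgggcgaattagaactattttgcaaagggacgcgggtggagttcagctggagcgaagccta
The Hey2 window held 2 matches and the Nrarp window 0. These letters stood in 25.6% of the 32851 promoters of the same length and in 3 of the 8 targets with an entry, which were Cdkn1a, Hes5 and Hey2. A match in this window is a description and not a measured site, and no match says only that these letters are not in it.

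Arterial, venous and sprouting genes, which Notch is known to balance, gave no call in +/-. All 20 arterial genes were tested, with 9 positive and 11 negative differences and a median of -0.04. None was free of overlap, where 4.02% of all genes tested lay wholly higher and 3.77% wholly lower, so few would be expected. Gja4, an arterial connexin picked after its values were seen, had 29.0, 20.4 and 52.4 scaled FPKM in +/- libraries, against 31.0, 27.4 and 35.7 in +/+ libraries. Sema3g, an endothelial semaphorin with the smallest p of the list, stood at 0.77, 0.82 and 1.77 in +/- libraries, against 2.31, 1.10 and 2.51 in +/+ libraries (-0.49 ± 0.26). The groups overlapped through +/+ replicate 2. All 10 venous genes were tested and split 5 to 5, with a median of -0.01. Aplnr, the apelin receptor of venous endothelium, had 145.7, 161.6 and 128.4 in +/- libraries, against 95.04, 143.2 and 118.0 in +/+ libraries (0.30 ± 0.18).

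Of the 20 tip cell and sprouting genes, all tested, 13 differences were positive and the median was 0.06. Kcne3, a potassium channel subunit enriched in tip cells, had 26.2, 25.9 and 30.9 scaled FPKM in +/- libraries, against 17.97, 18.9 and 13.0 in +/+ libraries. Its 3 +/- values were all above the +/+ values and close to each other. The log2 difference was 0.71 ± 0.23 with a 95% interval of 0.22 to 1.20 (limma unadjusted p = 0.00775, adjusted p = 0.545). It was the 1 member of the 20 at an unadjusted p under 0.05 in that direction, which 3.66% of all genes tested reached. Other tip cell genes, picked after their values were seen, had differences of -0.03 for Esm1, 0.05 for Apln and -0.29 for Angpt2. The VEGF receptor Kdr had 76.1, 75.2 and 86.7 in +/- libraries, against 70.9, 71.8 and 78.5 in +/+ libraries, a difference of 0.10 ± 0.12 and among the more precise of the set. Flt4, the receptor for VEGF-C, was set apart only by +/- replicate 2, with 61.2, 117.5 and 58.2 in +/- libraries, against 62.2, 57.4 and 53.1 in +/+ libraries.

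Among the 27 pan-endothelial genes, 3 were higher in +/- at an unadjusted p under 0.05 and none lower, against 3.66% higher and 3.85% lower of all genes tested. Leaving out +/- replicate 1 gave 8 higher, beside 738 of the 10550 genes tested, and leaving out +/- replicate 2 gave 1, beside 293. With +/+ replicate 1 left out it was 2, beside 434, and 0 once +/+ replicate 3 was omitted, beside 335. Without +/- replicate 3 it was 3 higher and 1 lower, beside 614 and 590 of all genes tested. Without +/+ replicate 2 it was also 3 higher and 1 lower, beside 368 and 418. The median difference of the list was 0.10. Sox7, an endothelial transcription factor, had 24.5, 22.7 and 28.7 scaled FPKM in +/- libraries, against 19.3, 20.9 and 18.1 in +/+ libraries, with the groups apart. Its log2 difference was 0.36 ± 0.14 (limma unadjusted p = 0.0252, adjusted p = 0.626). The other members were the transcription factor Erg (0.62) and the adhesion molecule Icam2 (0.63), named after their values were seen. Both stood out in the shallow library, at 44.0 for Erg and 257.5 for Icam2 in +/- replicate 2. In the other +/- libraries Erg had 20.8 and 23.2 and Icam2 102.8 and 114.0, against 14.1 to 26.7 and 88.3 to 95.6 in +/+ libraries.

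Endocardial genes and those of the cushion transition, in which endocardial cells become mesenchyme under Notch control, gave no call among 12 and 14 tested. Their median differences were 0.12 and 0.18. Hapln1, a matrix link protein and the most abundant endocardial gene, had 79.1, 45.8 and 60.8 scaled FPKM in +/- libraries, against 82.9, 70.6 and 62.5 in +/+ libraries. The groups overlapped. Snai2, a transcription factor of the transition, had 1.65, 1.98 and 2.47 in +/- libraries, against 1.71, 4.69 and 3.83 in +/+ libraries (-0.48 ± 0.26). The difference of its relative Snai1 was 0.14 ± 0.19. Has2, the hyaluronan synthase of the cushions and also picked after its values were seen, had 2.58, 2.55 and 2.81 in +/- libraries, against 2.21, 2.03 and 1.96 in +/+ libraries.

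BMP and TGF-beta genes had 13 negative and 5 positive differences among 18 tested, with a median of -0.08. Id2, an inhibitor of helix-loop-helix factors that BMP switches on, was among those with a positive difference, with 17.1, 15.6 and 26.3 scaled FPKM in +/- libraries, against 12.1, 13.1 and 11.4 in +/+ libraries. All +/- values were above the +/+ values. The log2 difference was 0.61 ± 0.19 (limma unadjusted p = 0.00744, adjusted p = 0.545), and 0.39 without +/- replicate 3. Id3, the most abundant of the list, had 250.8, 161.1 and 295.3 in +/- libraries, against 239.0, 291.1 and 234.2 in +/+ libraries (-0.15 ± 0.22). Basement membrane genes (14 tested, median 0.09) and shear-responsive genes (10 tested, median 0.14) also held no call. Cav1, the caveolar coat protein, had 4.35, 5.42 and 10.1 in +/- libraries, against 2.79, 4.11 and 3.98 in +/+ libraries, with the groups apart and a log2 difference of 0.66 ± 0.25.

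Cell cycle genes gave no call. All 24 DNA replication and mitosis genes were tested, all 24 had a 95% interval between -1 and 1, and the median difference was -0.03. Pcna, the replication clamp, had 131.3, 206.3 and 116.8 scaled FPKM in +/- libraries, against 126.9, 118.5 and 126.9 in +/+ libraries. Only +/- replicate 2 was outside the others. Plk1, a mitotic kinase, had 40.1, 30.1 and 43.7 in +/- libraries, against 44.9, 53.7 and 49.0 in +/+ libraries (-0.38 ± 0.18), with every +/- value lower. The G1 cyclins and inhibitors (12 tested) had a median of -0.09, and Cdk4 reached 675.1 in +/- replicate 2 but 227.7 to 262.4 in the other 5 libraries.

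**Figure D3:**
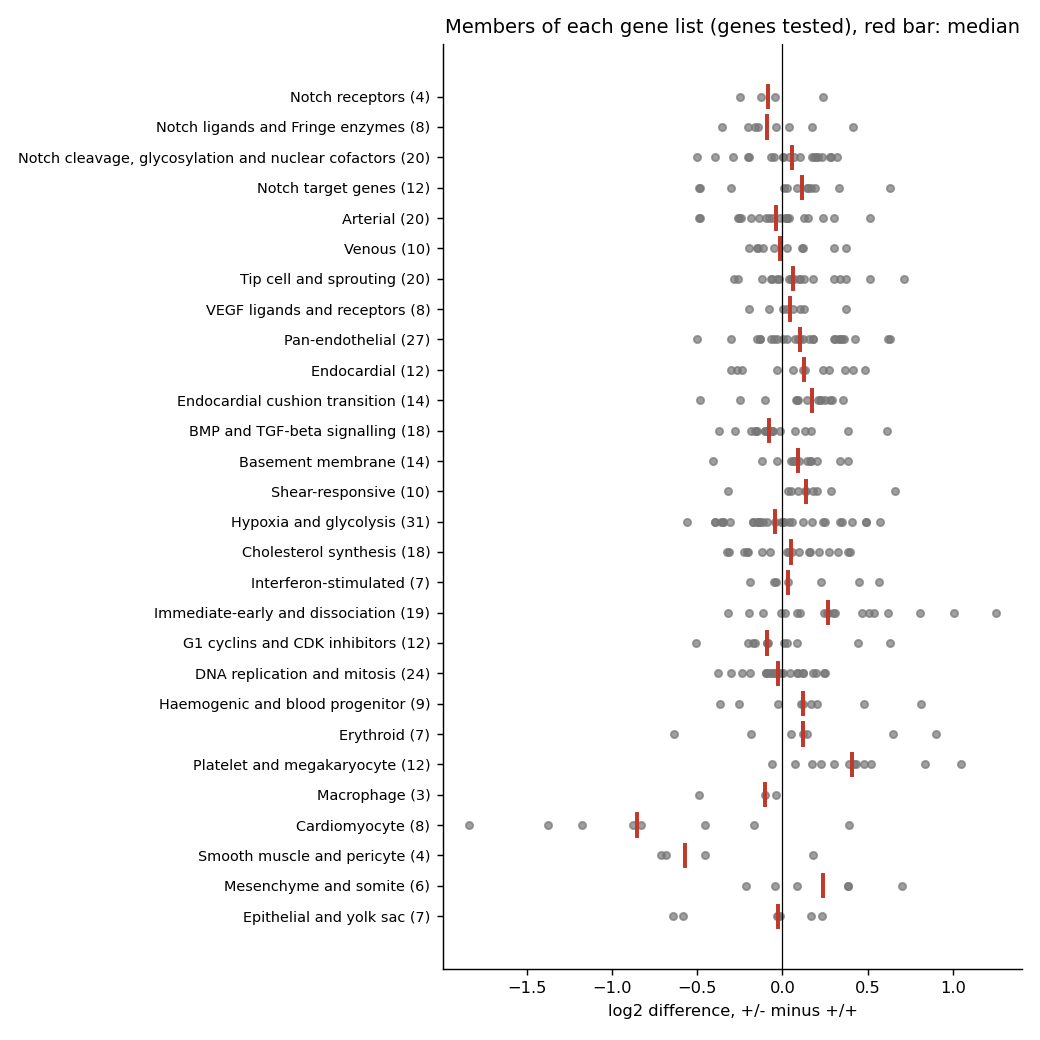
Log2 difference (+/- minus +/+) of the tested members of 28 gene lists with at least 3 members tested (embryo sex genes are not drawn), 1 grey point per gene, with the number tested in brackets and the median as a red bar. Most lists centre near 0; of those drawn, the platelet (0.41), smooth muscle (-0.57) and cardiomyocyte (-0.86) lists lie farthest from it, and no gene drawn was called.

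The genes that came closest to the threshold do not belong to the Notch lists. Clstn1, a calsyntenin known from neurons, had 3.08, 3.58 and 3.27 scaled FPKM in +/- libraries, against 1.38, 1.06 and 0.66 in +/+ libraries. The groups were far apart for a gene of this level. Its log2 difference was 1.10 ± 0.15 with a 95% interval of 0.76 to 1.43 (limma adjusted p = 0.0940), and it was called in 1 of 20 alternatives, without +/+ replicate 1 (1.22, limma adjusted p = 0.0223). The 12/- libraries had 2.72, 1.92 and 2.22, against 2.98, 3.44 and 2.51 in the +/12 libraries, which carry no null allele, so the +/+ libraries were the low ones of these 4 genotypes. Ppie, a cyclophilin of the spliceosome, was nearest on the lower side, with 9.09, 7.73 and 7.36 in +/- libraries, against 18.5, 13.2 and 15.5 in +/+ libraries. Its difference was -0.88 ± 0.14 with an interval of -1.18 to -0.58 (limma adjusted p = 0.156).

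The other genes with the smallest p and no overlap were mixed in function. On the higher side Alg14, an enzyme subunit of N-glycan assembly, had 20.2, 19.2 and 15.7 scaled FPKM in +/- libraries, against 9.82, 12.2 and 11.1 in +/+ libraries (0.68 ± 0.13). Tmem98, a membrane protein, had 14.1, 23.1 and 19.7 in +/- libraries, against 8.93, 10.7 and 8.79 in +/+ libraries (0.91 ± 0.21). Ak1, an adenylate kinase, had 2.56, 5.95 and 3.10 in +/- libraries, against 1.03, 0.82 and 0.88 in +/+ libraries (1.29 ± 0.27). In each of these 3 the lowest +/- value was above the highest +/+ value, as the choice of genes without overlap required. Ttc32 (0.93), Dnase1l1 (0.85), Pramef8 (0.72), Zc3h3 (0.73), Spata24 (1.42) and Kcna3 (1.01), a voltage-gated potassium channel, made up the rest of the higher 10. Of these 6, all but Spata24 stayed below 5 scaled FPKM in every +/- and +/+ library. On the lower side Guk1, the guanylate kinase, had 16.3, 11.8 and 26.7 in +/- libraries, against 38.1, 33.1 and 30.3 in +/+ libraries (-0.92 ± 0.22). Wdr12, a ribosome assembly factor whose span overlaps that of Carf in the files, had 8.50, 5.64 and 5.97 in +/- libraries, against 9.68, 11.7 and 11.6 in +/+ libraries (-0.65 ± 0.16). Pank1 (-0.79), Mdp1 (-0.61), Rnf167 (-0.91), Srd5a1 (-0.72), Pde7a (-0.60), Tmem209 (-0.51) and BC027231 (-0.64) made up the rest of the lower 10. The spans of Pank1 and, among genes named elsewhere, of Dll4, Mib1, Tpi1 and Plod2 overlap other gene models in the files, so their estimates are uncertain. Limma adjusted p-values of the 18 genes other than Clstn1 and Ppie ran from 0.191 to 0.485.

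Markers of other cells varied between libraries of the same genotype, and their part in any result above was not tested. In such bulk samples fewer cells of a type and less RNA per cell cannot be told apart. Cardiomyocyte markers (16 listed, 8 tested) summed to 22.9, 66.2 and 54.3 scaled FPKM in +/- libraries, against 89.3, 29.9 and 95.3 in +/+ libraries, and 7 of the 8 differences were negative. Of the 16, 1 to 3 were listed at 0 in +/- libraries and 0 to 2 in +/+ libraries. Myl2, a ventricular myosin light chain, had 0.71, 0.76 and 0.97 in +/- libraries, against 10.1, 1.81 and 7.76 in +/+ libraries (-1.84 ± 0.53, limma adjusted p = 0.524). All 3 +/- values were below the +/+ values, although the list as a whole overlapped through +/+ replicate 2. Smooth muscle and pericyte markers (9 listed, 4 tested) summed to 12.3, 9.95 and 13.0 in +/- libraries, against 19.0, 15.5 and 19.6 in +/+ libraries. These sums did not overlap, but of the 4 differences 3 were negative and 1 positive. Only 1 tested member, Acta2, lay wholly lower, where 3.77% of all genes tested did, and it was the most abundant of the 4. Acta2, smooth muscle actin, had 7.52, 5.42 and 4.84 in +/- libraries, against 9.16, 9.90 and 11.7 in +/+ libraries (-0.71 ± 0.23, limma adjusted p = 0.545). Platelet and megakaryocyte markers summed to 563.9, 886.0 and 1022 in +/- libraries, against 271.9, 885.6 and 703.7 in +/+ libraries, where +/+ replicate 1 was the low one. No +/- or +/+ library was free of these blood markers, and the genotypes overlapped. Erythroid markers, which include haemoglobins, summed to 148.1, 246.0 and 100.2 in +/- libraries, against 122.5, 114.8 and 133.0 in +/+ libraries. Macrophage markers stayed between 5.67 and 6.59 in +/- libraries and between 6.64 and 9.87 in +/+ libraries, with 6 to 9 of the 12 listed at 0 in +/- libraries and 1 to 6 in +/+ libraries. Epithelial and yolk sac markers summed to 18.9, 76.8 and 8.10 in +/- libraries, against 47.0, 18.9 and 32.7 in +/+ libraries.

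**Figure D4:**
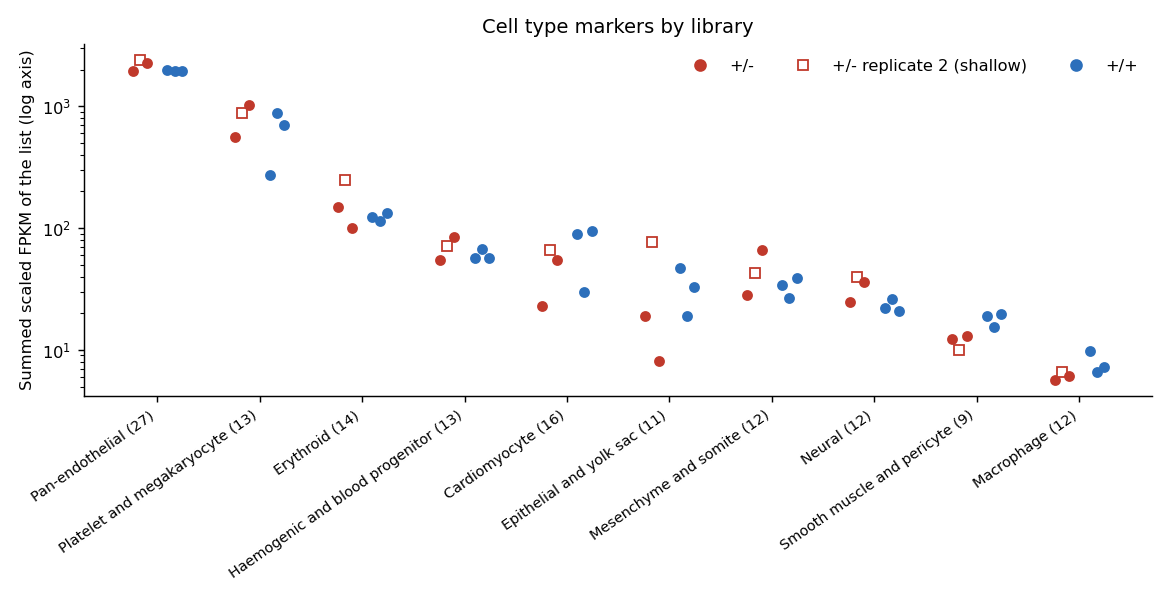
Summed scaled FPKM (log axis) of 10 marker lists in each library, +/- in red to the left and +/+ in blue to the right, open squares for the shallow +/- replicate 2, with the number of markers in brackets. Pan-endothelial sums stay between 1934 and 2397, and the groups are apart for smooth muscle and pericyte markers, lower in +/-. Macrophage sums are barely apart, with 6.59 the highest in +/- and 6.64 the lowest in +/+. The mean log2 level of the 3 macrophage markers tested overlaps, at 1.52 in +/- replicate 3 and 1.43 in +/+ replicate 2.

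Genes that respond to handling of cells gave 15 positive and 4 negative differences among 19 immediate-early and dissociation genes, with a median of 0.26. Over all genes tested, 5217 differences were positive and 5333 negative. The list summed to 274.5, 314.4 and 434.2 scaled FPKM in +/- libraries, against 276.4, 324.7 and 233.1 in +/+ libraries. The genotypes overlapped, and the highest sum was that of +/- replicate 3, the library in the low number range. Only 7 of the 19 had a 95% interval between -1 and 1. Btg2, a growth-arrest gene, had 9.07, 11.1 and 9.72 scaled FPKM in +/- libraries, against 7.93, 7.04 and 5.36 in +/+ libraries (0.51 ± 0.22, limma adjusted p = 0.650). Its groups were apart. Nr4a1, a nuclear receptor named after its values were seen, had 11.2, 25.9 and 33.3 in +/- libraries, against 10.1, 11.3 and 9.12 in +/+ libraries (1.01 ± 0.46, limma adjusted p = 0.659). Its +/- replicate 1 fell within the +/+ range. Interferon-stimulated genes (7 tested, median 0.03) and cholesterol synthesis genes (18 tested, median 0.05) held no call.

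Replacing a wild-type by a null allele was then compared between partners, as +/- against +/+ and as 12/- against +/12, in 1 fit over all libraries. All 12/- and +/12 library numbers lie in the low range and all +/+ numbers in the high range. Beside the wild-type allele, 31 of the 33 hypoxia and glycolysis genes were tested, 0 were called, and their median difference was -0.04, with 14 positive and 17 negative. Beside the 12 allele, 11 of these 31 rose in 12/-, none fell, and the median was 1.07, while 22 of all genes tested (0.209%) rose. Of the list, 6 rose when 12/- replicate 1 was left out, and 7 when 12/- replicate 3, +/12 replicate 1 or +/12 replicate 3 was. With +/- replicate 2 left out 17 rose, and with array weights 24. The test of the difference between the 2 effects called 5 genes (0.0474% of those tested), and 4 of the 5 were in that list. At an unadjusted p under 0.05 it passed 26 of the 31, against 6.56% of all genes tested, and the median difference between the effects was 1.12. Ndufa4l2 and Vegfa reached the filter on low values through the 12/- libraries alone, so they lend these counts no support. Among the other 29 members, 9 rose in 12/-, 3 were called for the difference between effects and 24 passed at an unadjusted p under 0.05. The hypoxia list was known to move in 12/- from earlier results on these libraries, so its count is not independent evidence.

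Adm, the vasoactive peptide adrenomedullin, had 0.91, 1.40 and 2.39 scaled FPKM in +/- libraries, against 0.84, 0.96 and 1.11 in +/+ libraries. It had 18.8, 9.47 and 15.8 in 12/- libraries, against 1.52, 1.57 and 1.23 in +/12 libraries. The +/- libraries overlapped the +/+ libraries and all stayed far below 12/-. Its log2 difference was 0.34 ± 0.24 in +/- against +/+, and 2.64 ± 0.24 in 12/- against +/12. Tpi1, a glycolytic enzyme, had 70.1, 64.9 and 77.8 in +/- libraries, against 101.0, 90.5 and 74.0 in +/+ libraries. It had 245.6, 225.4 and 196.2 in 12/- libraries, against 71.7, 102.5 and 91.2 in +/12 libraries, so the estimates differed in sign (-0.31 ± 0.16 beside +, 1.33 ± 0.16 beside 12).

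Bnip3, a mitophagy receptor induced by low oxygen, had 4.06, 2.58 and 3.43 scaled FPKM in +/- libraries, against 3.14, 3.28 and 4.73 in +/+ libraries. In 12/- libraries it had 35.1, 35.3 and 32.7, against 3.37, 9.99 and 5.28 in +/12 libraries. No +/- value was above the +/+ range, and all were far below 12/-. Bhlhe40, also of the list, had 2.43, 1.42 and 2.60 in +/- libraries, against 1.32, 1.06 and 1.25 in +/+ libraries. These groups were apart, with a log2 difference of 0.49 ± 0.24 (limma adjusted p = 0.675). Bhlhe40 averaged 12.2 in 12/- and 2.84 in +/12 libraries. Of the 31 tested members, 2 lay wholly higher in +/- and 0 wholly lower. Among all genes tested, 4.02% lay wholly higher and 3.77% wholly lower. Egln3, a prolyl hydroxylase that marks the HIF factors for decay, had 5.80, 3.51 and 5.45 in +/- libraries, against 5.85, 5.74 and 4.88 in +/+ libraries. Ldha, lactate dehydrogenase and the most abundant of the list, had 593.3, 1213 and 449.3 in +/- libraries, against 680.8, 620.5 and 595.1 in +/+ libraries, and the high value was that of +/- replicate 2. Hk1, a hexokinase whose span overlaps another gene model in the files, was the only member at an unadjusted p under 0.05 in +/- against +/+, with 5.36, 12.4 and 8.55 in +/- libraries, against 5.69, 5.08 and 6.23 in +/+ libraries (0.49 ± 0.21).

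The count of 5 called differences depended on single libraries. It was 12 without +/- replicate 1 and 8 when +/12 replicate 2 was left out. It was 2 when +/+ replicate 3 was left out, and 1 when either of 12/- replicates 1 and 2 was. It was 0 when +/- replicate 2, +/+ replicate 2, +/12 replicate 3 or 12/- replicate 3 was left out. It was also 0 without scaling and 0 with a covariate for the library number range. For Plod2, a collagen lysyl hydroxylase with the smallest p of the 5, the size of the difference was 1.22 to 1.47 over 24 alternatives. Its limma adjusted p-values ran from 0.00644 to 0.121. This range is not given for the others of the 5, so it does not describe them.

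**Figure D5:**
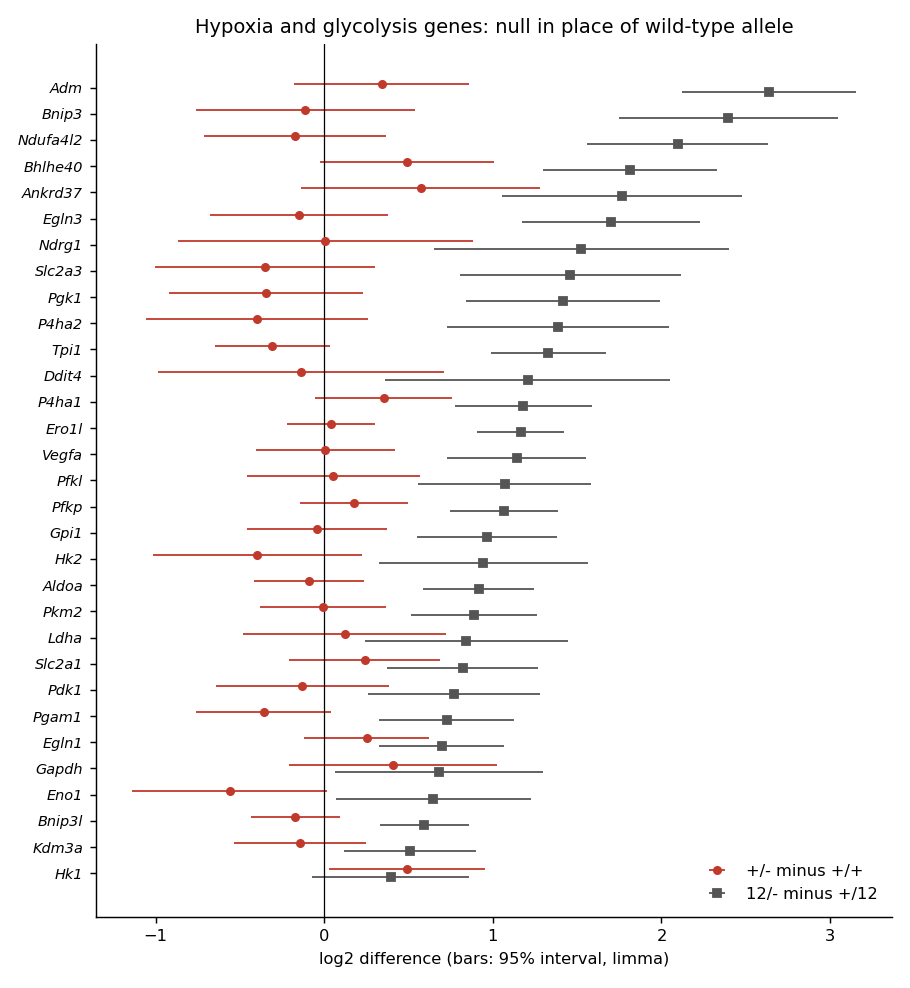
Log2 difference with its 95% interval (limma) for the 31 tested hypoxia and glycolysis genes, in +/- minus +/+ (red circles) and in 12/- minus +/12 (grey squares). The red points lie between -0.56 and 0.57 around a median of -0.04, and the grey points are all above 0 around a median of 1.07.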

How the data were processed

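RNA of CD31-sorted endothelial cells was sequenced from tagmentation libraries, per the labels' protocols. The authors deposited, for each library, FPKM values of 28107 transcripts, and coverage values in reads per base, per the file headers. The submitters' processing notes name TopHat2 2.0.9 and mm9. The quantification version, read length and strand setting were not given in the sources used here, which leaves overlapping genes uncertain. FPKM was summed over 22096 gene symbols with pandas 2.3.3, and 211 symbols with a failed status were left out. Libraries were scaled by median ratios over 8610 genes. Deposited coverage divided by FPKM was constant within a library (relative spread at most 8.75e-06) and gave aligned gigabases. Whole read counts were not recovered, so no counting intervals are given. File starts count from 0, and 1 was added.

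The fit used limma 3.58.1 in R 4.3.3 (eBayes with trend, two-sided, Benjamini-Hochberg) on log2(scaled FPKM + 1) of all 16 libraries in 6 groups, with 10 residual degrees of freedom. It was checked on simulated data. Members and lists were chosen with earlier results of these data known. Of 451 list entries, 450 matched a symbol. Genes named include the Notch receptors, ligands and targets with Rbpj. They also include the 10 smallest p without overlap in each direction (predicted and short genes left out). The rest were drawn from each list's most abundant member and smallest p, and from the strongest genes of the interaction and of hypoxia. Not every gene of these last sets is described above. Those left out include Gfi1b (0.82), Ifitm3 (0.45) and Dusp1 (0.30), higher in +/- without overlap and not called. Genes named outside these rules are marked. Alternatives changed scaling, pseudocount, filter, weights, moderation, covariates and libraries, and 2 were added after seeing the data.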

Additional observations from a re-analysis of the deposited data

Results flagged for a closer look

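For 5 genes the effect of the null allele differed between its partners by the limma interaction test, 12/- against +/12 minus +/- against +/+. The difference of the log2 effects was 1.29 ± 0.16 for Plod2 (limma adjusted p = 0.0284, called in 16 of 24 alternatives). It was 1.64 ± 0.22 for Tpi1 (limma adjusted p = 0.0331, called in 13 of 24). It was 2.30 ± 0.34 for Adm (limma adjusted p = 0.0456, called in 7 of 23). It was 1.12 ± 0.17 for Ero1l, an oxidase of protein folding in the endoplasmic reticulum (limma adjusted p = 0.0456, called in 8 of 24). It was 2.27 ± 0.35 for Ndufa4l2, a mitochondrial protein induced by low oxygen (limma adjusted p = 0.0479, called in 5 of 23), whose span overlaps that of Shmt2 in the files and which reached the filter on low values through the 12/- libraries alone, so its call carries no support. In each of the 5, all 3 12/- values were above all +/12, +/- and +/+ values.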

How the results depend on the processing

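No paired analysis was possible because the labels give no replicate numbers that pair libraries across genotypes. Genes called in +/- against +/+ numbered 0 in the fit as reported, 1 without a filter (Tssk3, -1.57), 1 with the 6 libraries fitted alone (Mir707), 2 with high library numbers only, fitted alone (added after seeing the data), and 0 to 4 when 1 library was left out (4 without +/- replicate 1, 3 without +/+ replicate 1). Genes at an unadjusted p under 0.05 numbered 1427 without a filter, 432 at a mean FPKM of at least 5, 352 with the 6 libraries alone, 429 with array weights, 409 with high numbers only, and 629 to 1535 with 1 library left out. Genes with an interval between -1 and 1 numbered 16756 without a filter and 5462 at a mean of at least 5, where the number of genes tested changed. Over the same 10550 genes as in the fit as reported (8988, 85.2%), the number was 7732 (73.3%) at a pseudocount of 0.1. It was 8019 (76.0%) with the 6 libraries alone and 6767 (64.1%) with high numbers only. The Notch1 difference was 0.046 without scaling, 0.031 with array weights, and -0.159 to 0.079 with 1 library left out (0.079 without +/- replicate 1 and 0.048 without +/+ replicate 1); no alternative called it. Called interactions numbered 0 without scaling, 1 with quantile normalization, 2 at a pseudocount of 0.1 or 0.5, 3 at a mean of at least 5, 2 with array weights, 0 with the number range as covariate, and 0 to 12 with 1 library left out. Where no construction shows it, the cause was not tested. Of 2006 alternative values of 102 differences of named genes, 1941 kept direction and call, 64 uncalled ones changed sign and 1 was newly called (Clstn1). In the shallow +/- replicate 2, 394 of the genes tested were listed at 0.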
